A study of Mus musculus with 8 samples.

Results

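Solute carriers are membrane proteins that move small molecules across the plasma membrane and the membranes of organelles without hydrolysing ATP, and they are grouped by sequence into numbered Slc families whose cargo ranges from glucose, amino acids and lactate to metals, nucleotides and ions. Dividing T cells and T cell lymphomas are known to depend on them for fuel and building blocks, above all on glucose carriers of the Slc2 family, lactate carriers of the Slc16 family and the large amino acid exchanger formed by Slc3a2 and Slc7a5. The genes described here are all those whose only symbol in the platform annotation is Slc followed by a number. They were 262 of the 12393 genes measured, in 49 families, read by 419 probe sets, and where a gene had several, the brightest on average stands for it. The symbol rule also takes in Slc9a3r1, Slc9a3r2 and Slc4a1ap, which are named for a carrier they bind and are not carriers themselves.

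RNA from established mouse T cell lymphoma lines that had lost Snf5 (Smarcb1), a subunit of the SWI/SNF chromatin remodeller, was hybridised to 8 Affymetrix Mouse 430A 2.0 arrays. From these lines cells with high and low CD44, a hyaluronan receptor of memory and activated T cells, were purified and gave the groups CD44hi (4 arrays) and CD44lo (4 arrays), and both groups carry the Snf5 loss. The labels do not say how many lines or clones the arrays stand for, how Snf5 was deleted, how old the animals were or what the replicate numbers 1 to 4 mean. Nothing in the labels ties replicates to separate cultures or mice, so p-values measure array-to-array spread alone, possibly technical.

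All levels below are log2 intensities, and a difference is CD44hi minus CD44lo on that scale, so that 1 is a 2-fold change. Each array's median intensity lay between 320.3 and 339.1. Cd44 itself was at 11.44 and 5.55, and Smarcb1, whose probe position relative to the deletion is not known here, at 6.78 and 6.85. Of 8 measured T cell markers, 4 (Cd3e, Cd3g, Cd8a and Cd8b1) lay between 13.06 and 14.00 in both groups, while Thy1 (4.47 and 4.55), Cd5 (4.32 and 4.29) and Cd4 (5.23 and 5.17) were below the 25th percentile of all genes, 5.43. No marker on the T, B, myeloid, erythroid, stromal or NK cell lists passed the test without the replicate block described below. The summed level of the 6 stromal markers ran from 8.62 to 9.87 in CD44hi and from 10.26 to 11.40 in CD44lo. Postn was at 8.17 and 10.57 (limma adjusted p = 0.067, and 0.0017 with that block), while Col1a1, Col1a2, Col3a1, Dcn and Pdgfrb each differed by 0.16 or less. RNA quality was read from control probe sets at both ends of Gapdh and of Actb. On the log2 scale the 3' end of Gapdh exceeded the 5' end by 0.82 ± 0.05 (SD, n = 4) for CD44hi, against 0.70 ± 0.04 (SD, n = 4) for CD44lo. A two-sided exact permutation test gave p = 0.0286, the smallest that 4 against 4 arrays allow. For Actb the 3' end exceeded the 5' end by 0.63 ± 0.15 (SD, n = 4) in CD44hi and 0.50 ± 0.11 (SD, n = 4) in CD44lo. The same exact permutation test gave p = 0.229 for Actb. The summed level of the 5 B cell markers measured ran from 7.36 to 7.57 in CD44hi and from 7.22 to 7.33 in CD44lo. Among them Ms4a1 was at 4.99 and 3.68 (difference 1.31, limma adjusted p = 0.096, and 0.066 with the block). Cd79b (0.21) and Pax5 (0.07) differed in the same direction, Cd79a (-0.18) and Blk (-0.06) in the other. None of the 5 averaged above the 25th percentile of all genes. The part of RNA quality, stromal RNA or B cell RNA in the differences below was not tested. In bulk RNA, fewer cells expressing a gene and less of its RNA per cell cannot be told apart.

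Between the subpopulations, 14 solute carrier genes changed: 6 rose and 8 fell in CD44hi, which is 5.34% of the 262. A change means an adjusted p under 0.05 from limma, with Benjamini-Hochberg adjustment over all genes. Over all genes the share was 3.81%, with 2.03% higher and 1.78% lower. In each of the 14 genes the CD44hi and CD44lo arrays did not overlap. Absence of overlap was found for 30 carrier genes, 11.5% of them, against 10.3% of all genes. The carriers as a whole were thus near the general rate, with a median difference of -0.02 against -0.000059 for all genes. What the 14 genes carry was mixed: choline, magnesium, glucose, a monocarboxylate and mitochondrial aspartate on the higher side, and fatty acids, peptides, creatine, coenzyme A and ions on the lower side.

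**Figure D1:**
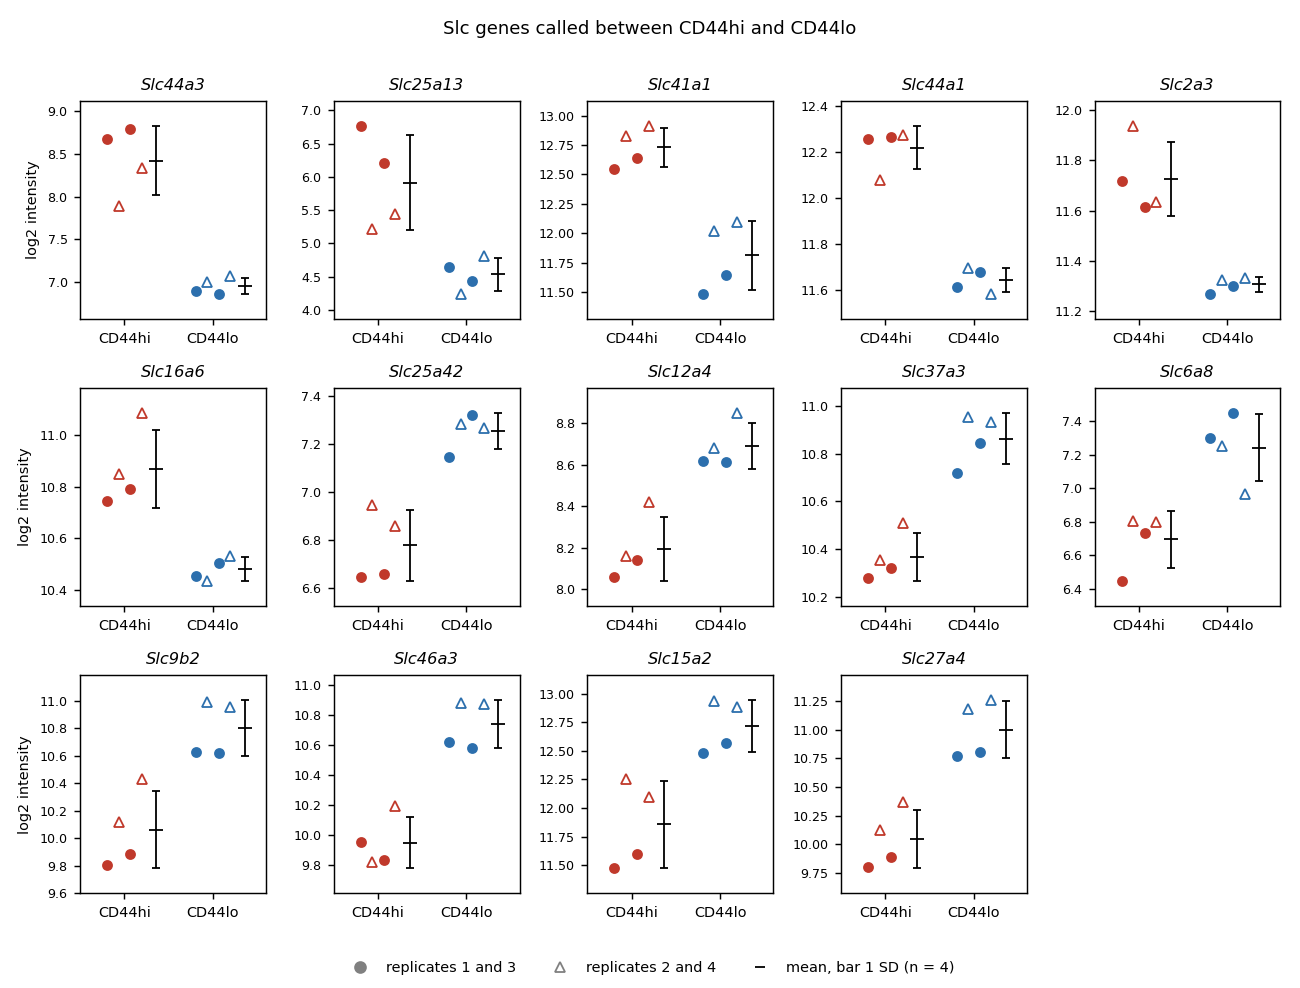
Log2 intensity of the 14 called solute carrier genes, 1 panel a gene with its own vertical scale, for the 4 CD44hi arrays (red) and the 4 CD44lo arrays (blue). Filled circles are replicates 1 and 3, open triangles replicates 2 and 4, and the black mark and bar are the mean ± 1 SD. In every panel the red and blue points occupy separate ranges, with the widest gap in means for Slc44a3 (8.42 against 6.96).

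The largest rise among the carriers was that of Slc44a3, of the choline transporter-like family Slc44. Slc44a3 stood at 8.67, 7.89, 8.79 and 8.33 in CD44hi replicates 1 to 4 and at 6.90, 7.01, 6.86 and 7.07 in CD44lo. Every CD44hi array was thus above every CD44lo array, and replicates 1 and 3 lay above 2 and 4 within CD44hi only. The difference was 1.46 (SE 0.18; 2.75-fold; limma adjusted p = 0.0020). Its relative Slc44a1, a plasma membrane and mitochondrial choline carrier that feeds phosphatidylcholine synthesis, was at 12.26, 12.08, 12.27 and 12.27 in CD44hi and at 11.61, 11.70, 11.68 and 11.58 in CD44lo. That rise was smaller, 0.58 (SE 0.08; 1.49-fold; limma adjusted p = 0.0026). A second Slc44a1 probe set, at 4.41 and 4.35, differed by 0.06, and for the mean of both the difference was 0.32 and the call was lost (limma adjusted p = 0.088). The other members did not pass: Slc44a2 was at 12.21 and 12.40 and Slc44a4 at 4.48 and 4.60.

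Slc41a1, a magnesium carrier, rose by 0.92 (SE 0.15; limma adjusted p = 0.0099), from 11.48, 12.02, 11.64 and 12.10 in CD44lo to 12.55, 12.83, 12.64 and 12.91 in CD44hi. Even- and odd-numbered arrays differed within each group, yet the lowest CD44hi value lay above the highest CD44lo one. Its relatives Slc41a2 (5.24 and 5.20) and Slc41a3 (8.18 and 8.28) did not pass.

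Slc46a3, a carrier of the lysosomal membrane, fell by 0.79 (SE 0.11; limma adjusted p = 0.0048). Its CD44hi arrays were at 9.95, 9.82, 9.83 and 10.19, all below the CD44lo arrays at 10.62, 10.88, 10.58 and 10.87. Slc46a1, the proton-coupled folate carrier, was at 9.10 and 8.87 without passing, and Slc46a2 was dim at 4.03 and 3.96. Slc27a4, which takes up long-chain fatty acids and activates them to their coenzyme A esters, fell by 0.96 (SE 0.16; limma adjusted p = 0.010). The CD44hi arrays stood at 9.80, 10.13, 9.88 and 10.37 and the CD44lo arrays at 10.77, 11.18, 10.80 and 11.26. Between arrays of the same number the fall was nearly constant, from 0.89 to 1.05. The other 4 members of the Slc27 family had differences of -0.02, -0.00075, -0.27 and -0.09 (Slc27a1, Slc27a2, Slc27a3 and Slc27a5), of which none passed.

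These 4 genes, Slc44a3, Slc41a1, Slc46a3 and Slc27a4, kept their call under every alternative processing in which they were tested, at an adjusted p under 0.05 and with no minimum difference, so the DNA ahead of their start sites is shown. The RefSeq promoter windows (build GRCm38.p6) are given from 250 to 51 bases before the annotated start, 200 bases each, on the gene's own strand. They lie at chr3:121532395-121532594 (minus strand, Slc44a3), chr1:131827762-131827961 (plus strand, Slc41a1), chr5:147894866-147895065 (minus strand, Slc46a3) and chr2:29802384-29802583 (plus strand, Slc27a4). Capitals mark matches on either strand to a GC box (GGGCGG) or a CCAAT box (CCAAT).
Slc44a3: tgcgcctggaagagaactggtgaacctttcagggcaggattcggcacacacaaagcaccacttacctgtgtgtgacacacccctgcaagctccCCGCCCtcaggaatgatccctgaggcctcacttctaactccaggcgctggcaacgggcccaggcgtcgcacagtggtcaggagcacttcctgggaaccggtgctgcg
Slc41a1: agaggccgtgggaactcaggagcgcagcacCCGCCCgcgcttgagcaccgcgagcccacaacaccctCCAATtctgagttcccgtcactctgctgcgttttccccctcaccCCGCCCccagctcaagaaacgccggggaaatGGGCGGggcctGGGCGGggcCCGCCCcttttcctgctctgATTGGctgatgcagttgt
Slc46a3: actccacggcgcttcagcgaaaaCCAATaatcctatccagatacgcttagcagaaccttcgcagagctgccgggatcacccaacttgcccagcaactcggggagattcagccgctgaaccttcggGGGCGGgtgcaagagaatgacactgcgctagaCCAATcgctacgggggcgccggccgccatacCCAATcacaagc
Slc27a4: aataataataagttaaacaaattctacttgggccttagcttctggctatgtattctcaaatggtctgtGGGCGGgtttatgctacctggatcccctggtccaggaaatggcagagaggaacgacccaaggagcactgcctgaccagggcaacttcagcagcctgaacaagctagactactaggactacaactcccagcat

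A GC box, the letters that Sp1-type factors read, was present in all 4 windows, with 5 matches in Slc41a1 and 1 in each of the others, while 24.6% of all 32851 RefSeq windows of this length held one. The CCAAT letters occurred 2 times in Slc41a1 and 3 times in Slc46a3, and in 28.4% of all windows. GC content was 61.0% in Slc44a3, 66.0% in Slc41a1, 59.0% in Slc46a3 and 48.0% in Slc27a4, with a median of 51.5% over all windows. An E-box (CACGTG) had 0 matches in these 4 windows, against 4.3% of all windows. The letters AGATAA, read by GATA factors, also had 0 matches, against 8.4%. So did CCCNNGGG, the core read by EBF factors, against 9.4%. Of the 262 carrier genes 206 were found in the promoter table, among them 11 of the 14 called genes.

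The families Slc2, Slc5, Slc45 and Slc50, grouped here as glucose and sugar families, had 22 genes, of which 1 rose and 0 fell. That is 4.55%, against 3.81% of all genes. Not all of the 22 carry sugars: Slc5a5 carries iodide, Slc5a6 vitamins, Slc5a7 choline and Slc5a8 monocarboxylates. Slc2a3, the high-affinity glucose carrier GLUT3, rose by 0.42 (SE 0.09; 1.34-fold; limma adjusted p = 0.030), from 11.27, 11.32, 11.30 and 11.33 in CD44lo to 11.72, 11.94, 11.62 and 11.64 in CD44hi. The CD44lo arrays were tightly grouped and all lay below CD44hi. Of its 3 other probe sets 1, at 11.47 and 11.07, differed by 0.41 and the remaining pair, at 5.28 or lower, by 0.06 and 0.11. For the mean of all 4 the difference was 0.25 and the call was lost (limma adjusted p = 0.184), as it was without CD44hi replicate 1 or any one of the CD44lo arrays (0.072 to 0.097). Slc2a1, the main glucose carrier GLUT1, did not pass: it stood at 12.62, 13.25, 12.59 and 13.38 in CD44hi and at 13.04, 13.34, 13.05 and 13.38 in CD44lo (difference -0.24, limma adjusted p = 0.758). Its groups overlapped, and the 3 Slc2a1 probe sets gave -0.24, -0.29 and -0.15. The sodium-glucose cotransporter Slc5a1, at 5.06 and 4.85, and the intracellular carrier Slc2a8, at 8.01 and 8.30, had groups that did not overlap without passing. The fructose carrier Slc2a5 differed by 0.43, Slc2a4, the insulin-responsive GLUT4, by -0.16 and the liver carrier Slc2a2 by -0.23 and none of these passed.

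Of 7 monocarboxylate carriers (Slc16) 1 rose and 0 fell, or 14.3%, against 3.81% of all genes. Slc16a6 rose by 0.39 (SE 0.09; 1.31-fold; limma adjusted p = 0.04996, just inside the threshold), with CD44hi arrays at 10.74, 10.85, 10.79 and 11.08 and CD44lo arrays at 10.45, 10.43, 10.50 and 10.53. The call was lost whichever array was left out (limma adjusted p = 0.057 to 0.145). The lactate exporter Slc16a3 (MCT4) moved the other way without passing (difference -0.68, SE 0.19, limma adjusted p = 0.113): its CD44hi arrays were at 8.95, 9.48, 8.99 and 9.60, below all CD44lo arrays at 10.18, 9.67, 10.19 and 9.70. Arrays numbered 1 and 3 accounted for most of that gap, with a mean difference of -1.21 against -0.14 for numbers 2 and 4. Slc16a1 (MCT1), the proton-coupled lactate and pyruvate carrier, was at 12.67, 12.64, 12.55 and 11.73 in CD44hi and at 12.67, 12.36, 12.53 and 12.12 in CD44lo. These ranges overlapped and the difference was -0.03. Slc16a7, Slc16a4, Slc16a8 and Slc16a11 differed by 0.18, -0.15, 0.11 and -0.05, and did not pass.

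**Figure D2:**
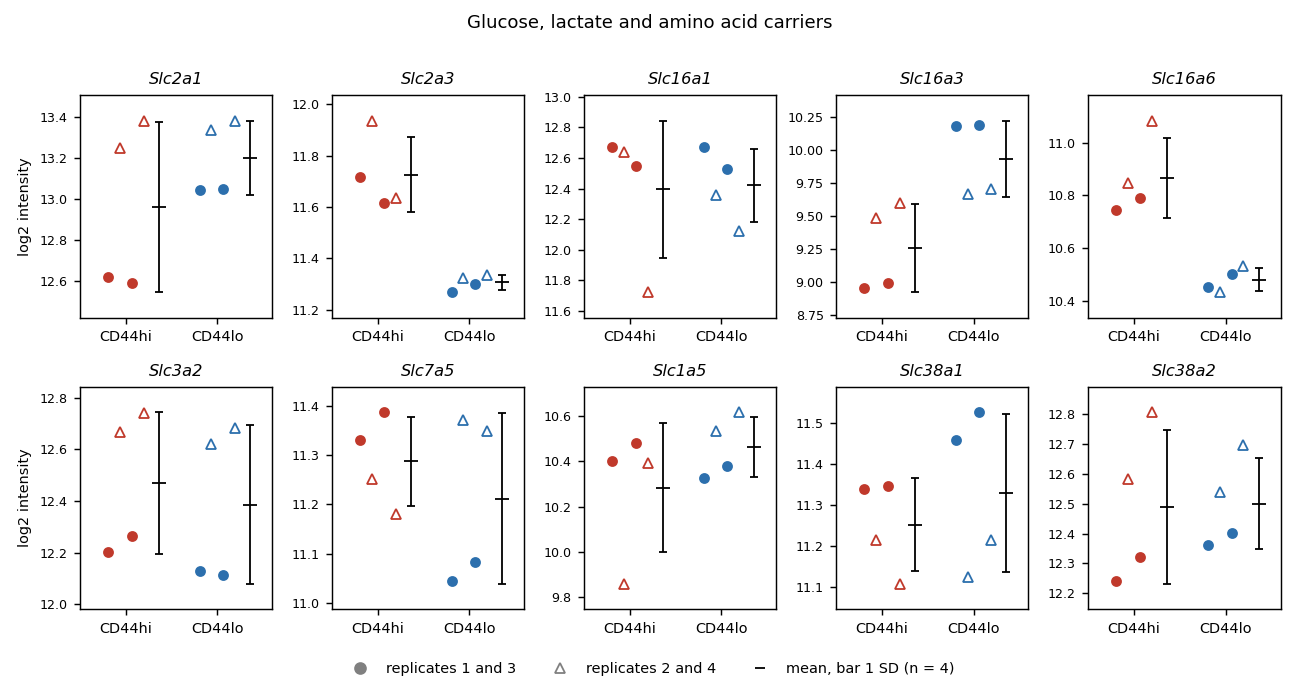
Log2 intensity of 10 glucose, lactate and amino acid carriers, 1 panel a gene with its own vertical scale, in CD44hi (red) and CD44lo (blue); filled circles are replicates 1 and 3, open triangles replicates 2 and 4, and black bars the mean ± 1 SD of 4 arrays. Slc2a3 and Slc16a6 are separate between groups and called, Slc16a3 is separate and not called, and in Slc2a1 and Slc3a2 the circles lie apart from the triangles in both groups.

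The amino acid families (Slc1, Slc3, Slc6, Slc7, Slc38 and Slc43), which also hold carriers of creatine and of monoamine transmitters, had 43 genes, of which 0 rose and 1 fell, with a median difference of 0.01. That is 2.33% called, against 3.81% of all genes. The 1 that fell, Slc6a8, imports creatine. It stood at 6.45, 6.81, 6.73 and 6.80 in CD44hi and at 7.30, 7.25, 7.45 and 6.97 in CD44lo (difference -0.55, SE 0.12, limma adjusted p = 0.047). The call was lost in 13 of 21 alternatives, among them the replicate block (limma adjusted p = 0.0525), both other scalings (0.051 and 0.053) and leaving out any array but CD44lo replicate 4 (0.064 to 0.139). The difference was -0.31 over numbers 2 and 4 alone. Slc3a2, the CD98 heavy chain, was at 12.20, 12.67, 12.26 and 12.74 in CD44hi and at 12.13, 12.62, 12.11 and 12.68 in CD44lo, a difference of 0.08 that did not pass. Its light chain Slc7a5, which carries leucine and other large neutral amino acids, was at 11.33, 11.25, 11.39 and 11.18 against 11.04, 11.37, 11.08 and 11.35 (difference 0.08, limma adjusted p = 0.885). The groups of both genes overlapped.

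The glutamine carriers also gave overlapping groups. Slc1a5 stood at 10.40, 9.86, 10.48 and 10.39 in CD44hi and at 10.33, 10.53, 10.38 and 10.62 in CD44lo (difference -0.18). Slc38a1 had a difference of -0.08 at 11.25 and 11.33, and Slc38a2 one of -0.01 at 12.49 and 12.50. The cystine-glutamate exchanger Slc7a11 was dim in both groups, at 3.97 and 4.09, where the array medians of 27 bacterial control probe sets were 3.95 to 4.12. Slc6a17, a vesicular neutral amino acid carrier, had groups that did not overlap (difference 0.73, SE 0.21) but failed the test (limma adjusted p = 0.131), where numbers 1 and 3 gave 0.22 and numbers 2 and 4 gave 1.23. Slc6a12 differed by 0.27 and Slc7a4 by -0.34 without passing. The cationic amino acid carrier Slc7a3 (7.87 against 7.45) and Slc7a10 (6.53 against 6.11), a carrier of small neutral amino acids, were higher with the block alone, by 0.42 each (limma adjusted p = 0.018 and 0.034 with the block, 0.231 and 0.213 without).

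The ion families, which carry sodium, potassium, calcium, protons, chloride or bicarbonate, had 35 genes by symbol, the 3 binding partners Slc9a3r1, Slc9a3r2 and Slc4a1ap included, of which 0 rose and 2 fell. That is 5.71%, against 3.81% of all genes. Slc9b2, a sodium-proton antiporter, fell by 0.74 (SE 0.15; limma adjusted p = 0.032), with CD44hi arrays at 9.81, 10.12, 9.88 and 10.43 and CD44lo arrays at 10.63, 10.99, 10.62 and 10.96. Slc12a4, the potassium-chloride cotransporter KCC1, fell by 0.50 (SE 0.10; limma adjusted p = 0.026), with 8.06, 8.16, 8.14 and 8.42 against 8.62, 8.68, 8.61 and 8.85. In both genes every CD44hi array lay below every CD44lo array. Both calls were lost whichever array but CD44hi replicate 4 was left out (limma adjusted p = 0.054 to 0.108 for Slc9b2 and 0.059 to 0.086 for Slc12a4). The 7 other Slc12 genes did not pass, and among them Slc12a2, the sodium-potassium-chloride cotransporter NKCC1, was at 10.42 and 10.68 with overlapping groups. Slc12a8 came closest, with a difference of 0.41 (limma adjusted p = 0.056) and separate groups. Slc26a3 (0.30), Slc26a8 (0.20) and Slc8a2 (0.16) differed by less.

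Metal carriers (26 genes) gave 1 rise, that of Slc41a1 above, and 0 falls, or 3.85%, against 3.81% of all genes. Iron and zinc carriers did not pass: Slc39a14 was at 11.74 and 11.33 (limma adjusted p = 0.095), the divalent metal carrier Slc11a2 at 8.20 and 8.33, and the iron exporter Slc40a1 dim at 4.05 and 4.17. With the replicate block 2 more metal genes were called. Slc30a4, a zinc carrier, was at 8.15, 9.13, 8.41 and 9.26 in CD44hi and at 7.63, 8.17, 7.63 and 8.29 in CD44lo, so that the groups overlapped while each same-numbered pair differed by 0.52 to 0.98 (difference 0.81; limma adjusted p = 0.0049 with the block, 0.195 without). Slc31a2, a copper carrier relative, fell by 0.40 with the block (limma adjusted p = 0.026, against 0.140 without). Its second, dimmer probe set, at 7.44 and 7.83, differed by -0.39 and passed without the block among all probe sets (limma adjusted p = 0.017).

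Of 33 mitochondrial carriers (Slc25) 1 rose and 1 fell, or 6.06%, against 3.81% of all genes. The difference was negative in 23 of the 33 (class median -0.08), in 145 of all 262 Slc genes and in 6198 of all 12393 genes. Slc25a42, which brings coenzyme A into mitochondria, fell by 0.48 (SE 0.09; limma adjusted p = 0.022), from 7.15, 7.28, 7.32 and 7.26 in CD44lo to 6.65, 6.95, 6.66 and 6.86 in CD44hi. That call was lost without CD44hi replicate 1 or 3 or CD44lo replicate 2, 3 or 4 (limma adjusted p = 0.061 to 0.078). Slc25a13, the aspartate-glutamate carrier citrin, rose by 1.38 (SE 0.32; limma adjusted p = 0.049). It was at 6.76, 5.21, 6.21 and 5.44 in CD44hi and at 4.64, 4.24, 4.44 and 4.81 in CD44lo, where it lay close above the bacterial controls, so that the size of the rise is uncertain. The rise was 1.95 over numbers 1 and 3 but 0.80 over numbers 2 and 4, and the call was lost without CD44hi replicate 1 or 3 or any one of the CD44lo arrays (limma adjusted p = 0.055 to 0.147). Slc25a35 (7.69 against 8.23) and the NAD carrier Slc25a51 (11.98 against 12.31) were lower with the block alone (limma adjusted p = 0.0087 and 0.049, against 0.154 and 0.148 without).

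In the smaller classes the falls stood singly among their families. Slc15a2, the high-affinity proton-coupled peptide carrier PEPT2, was at 11.47, 12.26, 11.60 and 12.10 in CD44hi and at 12.48, 12.93, 12.57 and 12.88 in CD44lo. It fell by 0.86 (SE 0.19; limma adjusted p = 0.043), and the highest CD44hi array lay just below the lowest CD44lo array. A second Slc15a2 probe set, at 5.30 and 5.24, differed by 0.06, and for the mean of both the difference was -0.40 and the call was lost (limma adjusted p = 0.118). It was also lost without CD44hi replicate 1 or 3 or any one of the CD44lo arrays (0.062 to 0.134). The other 4 Slc15 genes did not pass, among them Slc15a1 (-0.13) and Slc15a3 (0.26). Slc37a3, of the sugar phosphate family, fell by 0.50 (SE 0.09; limma adjusted p = 0.012), with CD44hi arrays at 10.28, 10.35, 10.32 and 10.51 and CD44lo arrays at 10.72, 10.95, 10.85 and 10.93. Its second probe set differed by -0.57 without passing among all probe sets, and the call was lost for the mean of both (limma adjusted p = 0.144) and without CD44lo replicate 4 (0.051). Slc37a1 and Slc37a2 differed by -0.36 and -0.34 and the glucose 6-phosphate carrier Slc37a4 by 0.03, and none of these passed.

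The remaining classes had 0 calls without the block. The multidrug and toxin exporter Slc47a1 lay nearest the threshold among 23 organic ion carriers (difference 0.65, SE 0.15, limma adjusted p = 0.052), where numbers 1 and 3 gave 0.98 and numbers 2 and 4 gave 0.33. In the same class the bile acid carrier Slc10a1, at 6.72 and 7.18, was lower with the block alone (limma adjusted p = 0.038, against 0.264 without), and Slc10a6 differed by 0.20. Among 5 nucleoside carriers, Slc29a3 had separate groups (difference -0.20), the equilibrative carrier Slc29a1 was at 9.30 and 9.69 and Slc29a2 at 7.56 and 7.60. The 18 nucleotide sugar carriers (Slc35) had differences of -0.18 for Slc35e4, 0.25 for Slc35g3 and -0.27 for Slc35a4. The phosphate importer Slc20a1 was at 11.06 and 11.05, and the other phosphate and sulfate carriers nearest to passing (Slc13a3, Slc13a2 and Slc34a1) were dim, at 4.63 or below. Vesicular carriers differed little, with 0.18 for Slc17a3, -0.16 for Slc32a1 and -0.18 for Slc17a2.

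**Figure D3:**
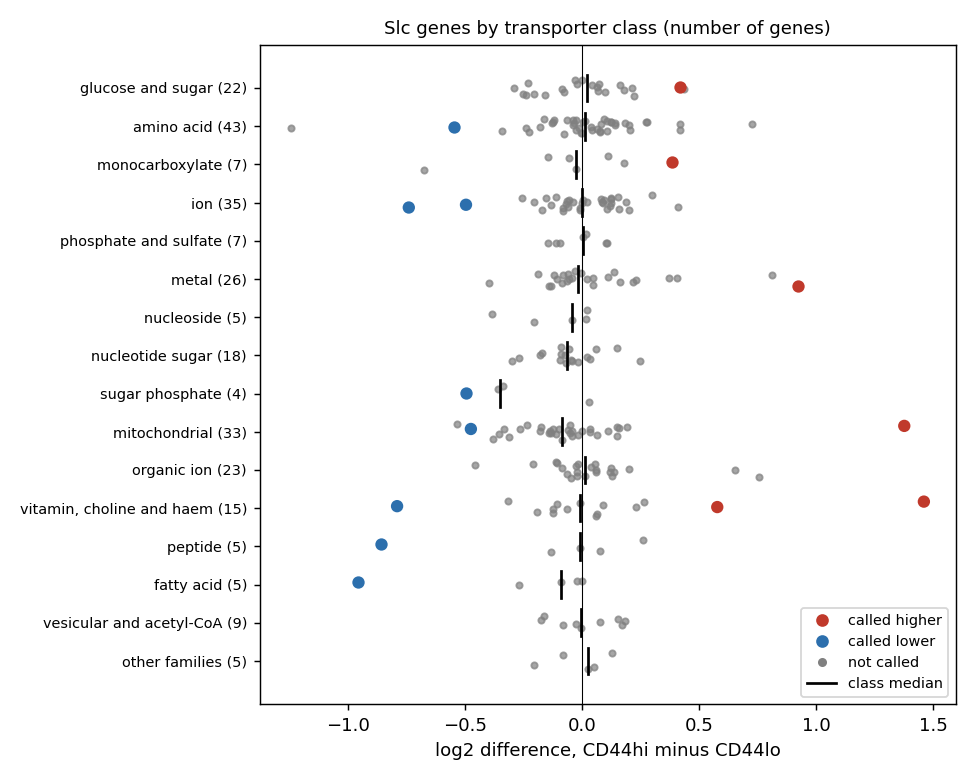
Log2 difference between CD44hi and CD44lo for all 262 solute carrier genes, 1 row a transporter class with its number of genes; large red and blue points are genes called higher and lower, grey points genes not called, and black ticks class medians. The medians stay between -0.35 (sugar phosphate, 4 genes) and 0.03, and the called genes are scattered over 10 of the 16 classes.

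Arrays of the same replicate number moved together, as did those of the same set (1 and 3, or 2 and 4). With the number as a block 20 carrier genes were called, 9 higher and 11 lower, or 7.63%. Over all genes the block called 6.19%, with 3.08% higher and 3.11% lower. Of the 14 genes called without the block 13 were called with it, all but Slc6a8. Leaving out 1 array mostly lowered the counts of 6 higher and 8 lower carriers. They were 3 and 3 without CD44hi replicate 1, CD44lo replicate 2 or CD44lo replicate 3. Without CD44hi replicate 3 or CD44lo replicate 4 they were 4 and 3. They were 3 and 4 without CD44lo replicate 1, 6 and 5 without CD44hi replicate 2, and 6 and 8 without CD44hi replicate 4. Over all genes 252 rose and 220 fell with every array. Without 1 array 178 to 230 of all genes rose and 127 to 226 fell. Arrays numbered 1 and 3 alone called 12 higher and 12 lower, of which 5 and 8 were among the 14. Over all 12393 genes these arrays called 422 higher and 450 lower. Those numbered 2 and 4 alone called 5 and 7, of which 2 and 3 were among the 14, with 306 and 267 over all genes.

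**Figure D4:**
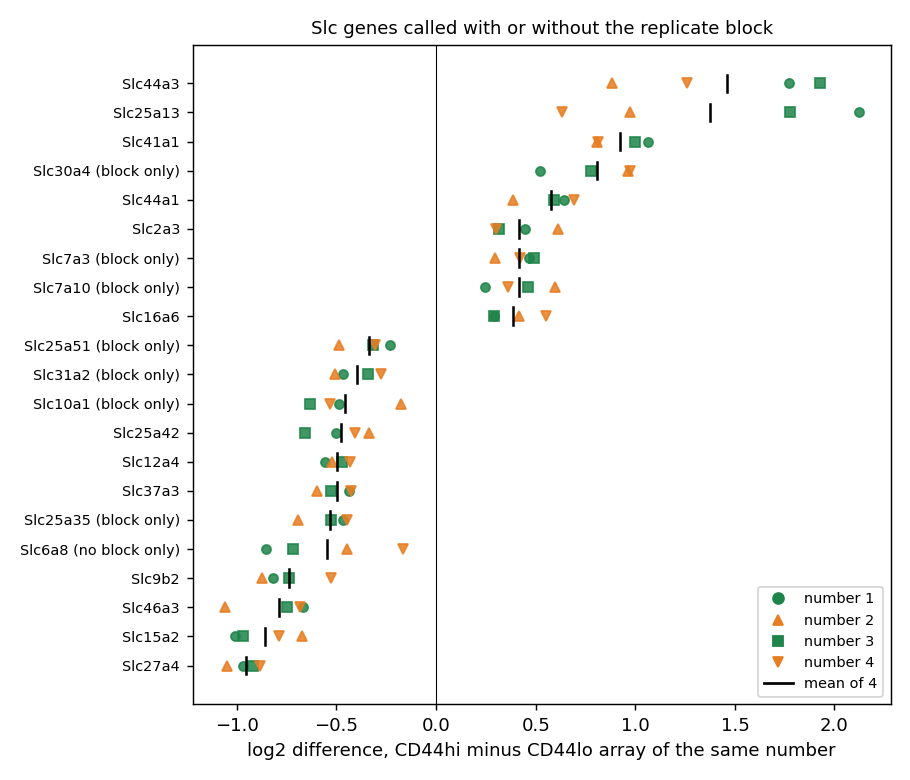
Log2 difference between the CD44hi and the CD44lo array of the same number (green, numbers 1 and 3; orange, numbers 2 and 4) for the 21 solute carrier genes called with or without the replicate block; the black tick is the mean of the 4. All 4 differences share a sign in each gene, and they spread most in Slc25a13, from 0.63 to 2.12.

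Among 27 measured partners and regulators of carriers, 2 rose and 0 fell in CD44hi, or 7.41%, against 3.81% of all genes. Stk39, the kinase SPAK that acts on cation-chloride cotransporters of the Slc12 family, rose by 1.63 (SE 0.09; limma adjusted p = 1.59e-05), from 10.11 to 11.74. Ldhb, the lactate dehydrogenase subunit, rose by 2.14 (SE 0.20; limma adjusted p = 0.000325), from 6.72 to 8.86. Ldha (14.22 and 14.27), the Slc16 chaperone Bsg (12.37 and 12.27), Txnip (9.60 and 9.64), which lowers glucose uptake, Myc (12.48 and 12.33) and Hif1a (11.44 and 11.43) did not pass. Txnip ran from 8.39 to 10.52 in CD44hi and from 8.34 to 10.91 in CD44lo. Its replicates 1 and 3 were higher than 2 and 4 by 1.76 in CD44hi and 2.21 in CD44lo. The hexokinase Hk2 was at 10.93 and 11.39 and was lower with the block alone (limma adjusted p = 0.018, against 0.080 without).

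The replicate numbers themselves divided the arrays: numbers 1 and 3 resembled each other apart from 2 and 4, in both groups. The labels do not explain this and the division was noticed in these data, so it is described without a test. A gene was counted where the arrays numbered 1 and 3 lay on 1 side of those numbered 2 and 4 within CD44hi and within CD44lo, in the same direction, with an average difference of at least 0.5. That held for 24 carrier genes, 9 higher and 15 lower in replicates 1 and 3, or 9.16%. Over all genes it held for 9.41%, with 4.32% higher and 5.09% lower, so the carriers were near the general rate. Among the 27 partners and regulators 1 was higher (Txnip) and 2 were lower (Arrdc4 and Pdk1), or 11.1%. Across the 262 carriers the difference between the numbers in CD44hi correlated with that in CD44lo at Pearson's r = 0.62, and at 0.66 across all genes. These values are across genes, which are no independent replicates. The 3' to 5' ratio of the Actb control probe sets averaged 0.46 in replicates 1 and 3 and 0.67 in replicates 2 and 4, and that of Gapdh 0.76 and 0.75, and their part in these differences was not tested.

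Among the carriers the largest of these differences was that of Slc6a6, the taurine importer, at 9.86, 7.70, 9.41 and 6.95 in CD44hi replicates 1 to 4 and at 10.33, 9.45, 9.96 and 9.14 in CD44lo. Replicates 1 and 3 were higher by 2.31 in CD44hi and 0.85 in CD44lo, and 2 dim probe sets of the gene gave -0.08 and -0.12, and 0.21 and 0.13. Slc35e1 was higher by 1.64 and 0.79, and its second probe set by 0.60 and 0.02. The mitochondrial dicarboxylate carrier Slc25a10 was higher by 1.53 and 0.59, with 9.69, 7.95, 9.68 and 8.37 in CD44hi and at 9.61, 8.99, 9.59 and 9.03 in CD44lo. Both Slc25a10 probe sets showed it.

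Metal and ion carriers were among the other genes higher in replicates 1 and 3. The copper importer Slc31a1 was at 11.02, 10.02, 10.70 and 9.49 in CD44hi and at 10.99, 9.97, 10.98 and 10.05 in CD44lo, a difference of about equal size in both (1.11 and 0.98). Slc11a2 was higher by 1.07 and 0.69, the zinc and manganese carrier Slc39a8 by 0.46 and 0.88, and Slc12a2 by 0.98 and 0.85. The other Slc11a2 probe sets gave 0.85 and 0.53, and 0.44 and -0.0071, so that the last did not show it in CD44lo. Those of Slc39a8 and Slc12a2 were higher in both groups. Slc29a1 was higher by 1.07 in CD44hi and 0.13 in CD44lo. In these 4 genes and Slc31a1 the CD44hi and CD44lo groups overlapped.

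On the lower side, 4 of the 15 genes belong to the sugar carrier families: the urate carrier Slc2a9, Slc45a3, the myo-inositol carrier Slc5a3 and Slc2a1. That is 18.2% of the 22 genes in those families, where 9.41% of all genes were counted on either side. Slc2a9 was lower in replicates 1 and 3 by 0.80 in CD44hi and 1.00 in CD44lo, Slc45a3 by 0.79 and 0.68, Slc5a3 by 0.73 and 0.65, and Slc2a1 by 0.71 and 0.31. Amino acid carriers gave 3 genes. Slc1a4, a carrier of alanine, serine and cysteine, was at 12.36, 13.12, 12.41 and 13.13 in CD44hi and at 12.29, 12.99, 12.04 and 12.89 in CD44lo, lower by 0.74 and 0.77, and Slc3a2 was lower by 0.47 and 0.53. Slc22a21, a carnitine carrier relative, had the most uneven pair, at 7.31, 9.14, 7.48 and 9.40 in CD44hi and at 7.39, 7.70, 7.49 and 7.74 in CD44lo. Slc44a2, unlike its called relatives Slc44a1 and Slc44a3, was lower in replicates 1 and 3 in both groups, by 1.06 and 0.61. Slc30a4 was lower by 0.91 and 0.59 and Slc25a38, a mitochondrial glycine carrier, by 0.87 and 0.34.

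**Figure D5:**
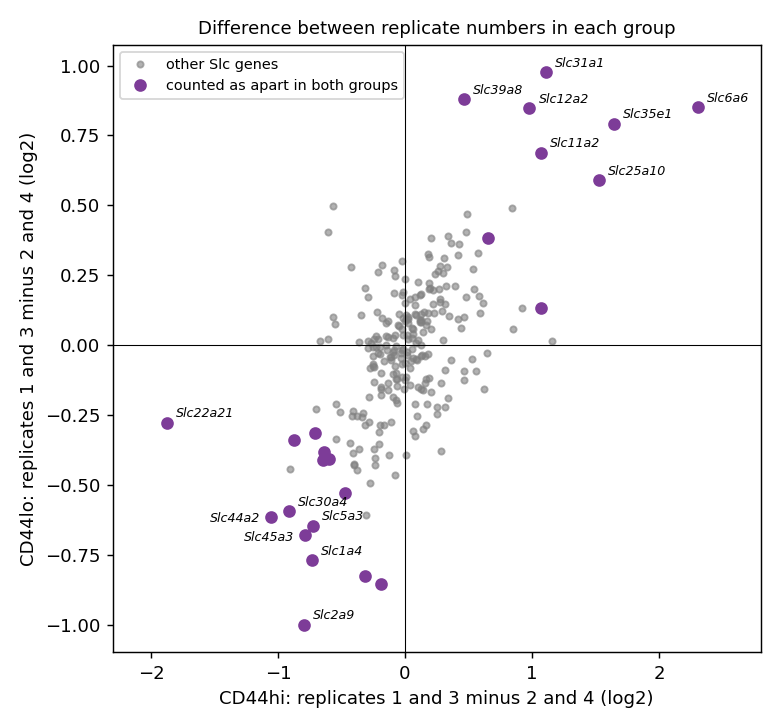
Difference between replicates 1 and 3 and replicates 2 and 4 for the 262 solute carrier genes, in CD44hi (horizontal) and CD44lo (vertical), on the log2 scale; purple points are the 24 genes counted as apart in both groups, grey points the others. Slc6a6 lies farthest to the right, at 2.31 and 0.85, and Slc22a21 farthest to the left.

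Level set limits on these counts. By mean level 89 of the 262 carrier genes lay below the 25th percentile of all genes, 5.43, and 1 of them, Slc25a13, was called. The matching count of dim genes over all genes is not given here. Of the 96 carriers above the median level of all genes, 9.03, 4 rose and 5 fell in the fit over all genes. The share called among all genes above that median in the same fit is not given here. When only genes above that median were tested, 4 and 4 of the 96 were called, beside 102 and 113 of 6196 genes.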

How the data were processed

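The authors deposited probe set intensities, which per the labels' protocols came from CEL files processed with Robust Multichip Average (RMA); the sources used here name no version or options. RMA normally returns log2 values, but these ran up to 36128. The deposited values were therefore treated as intensity on a linear scale, and converted to log2 with no offset. RMA shrinks differences near background.

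Of 22690 probe sets 20380 carry a single symbol in the platform annotation; 3 Slc probe sets with several symbols were left out. All 262 carrier symbols matched a RefSeq table (GRCm38.p6) by gene identifier and 0 changed. All genes were fitted with limma 3.58.1 (lmFit, eBayes) in R 4.3.3, without covariates, and p-values were adjusted over all 12393 genes. The fit was tested on simulated data. Members, classes and partner genes were chosen with earlier results of these data known. Named are called members, the members of smallest p in each class, 16 preset carriers, called partners and the members with the largest differences between replicate numbers; further family members, partners and cell markers, and members called with the block alone, were chosen after their values were seen.

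Both groups share replicate numbers. After subtracting group means, the 2 arrays of each number correlated over all genes (r = 0.574, 0.404, 0.533 and 0.531). Every value exceeded 0.1, and on that ground the numbers were used as a block. Arrays of different number but the same set (1 and 3, or 2 and 4) correlated at 0.372 to 0.521 and would pass the same cut. The cut therefore cannot tell pairing by number from the division into these sets. The block comes from the values, not the labels. Alternatives covered scaling, an offset, filters on dim genes, the probe set of a gene, variance models, array weights, the block, thresholds and leaving out arrays.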

Additional observations from a re-analysis of the deposited data

Results flagged for a closer look

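In 4 of the groups of 4 arrays examined for named carriers, 1 array lay far from the other 3; chance alone flags about 1 in 20 such groups, and 164 groups were examined. Slc44a1 was at 12.08 in CD44hi replicate 2 and at 12.26 to 12.27 in the others. Slc1a5 was at 9.86 in CD44hi replicate 2 and at 10.39 to 10.48 in the others. Slc16a1 was at 11.73 in CD44hi replicate 4 and at 12.55 to 12.67 in the others. Slc13a2, a dim gene, was at 4.45 in CD44hi replicate 2 and at 4.30 to 4.32 in the others.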

How the results depend on the processing

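At an adjusted p under 0.05 and with no minimum difference, the 14 called carriers kept their direction under every alternative that tested them (302 values): 221 kept the call and 81 lost it. Slc44a3, Slc41a1, Slc46a3 and Slc27a4 kept it in all of these, and Slc44a1 lost it for the mean of all its probe sets and for arrays numbered 2 and 4 alone. The other 9 each lost it without at least 1 array. With the replicate block, 9 higher and 11 lower carriers were called in place of 6 and 8. Over all genes the block called 382 higher and 385 lower in place of 252 and 220. Among the genes named above the block changed the call of Slc6a8, 7 other carriers, Hk2 and the stromal marker Postn. A block for the replicate set (1 and 3, or 2 and 4) found 12 and 15, with 4 partner genes in place of 2, beside 522 and 544 over all genes. Array weights gave 10 and 11, beside 403 and 418 over all genes. Arrays numbered 1 and 3 alone gave 12 and 12 with 4 partner genes. Those numbered 2 and 4 alone gave 5 and 7, of which 2 and 3 were among the 14. Genes above the median level gave 4 and 4 of 96 carriers, beside 102 and 113 of 6196 genes, with 1 partner gene. Among those 96 carriers 8 were higher and 7 lower in replicates 1 and 3, beside 395 and 368 of the 6196 genes. Over all 262 carriers these counts were 9 and 15, beside 535 and 631 of 12393 genes. An adjusted p under 0.01 left 3 and 1, without Slc27a4 (limma adjusted p = 0.010), beside 141 and 100 over all genes. A difference of at least 1 left 2 and 0, beside 108 and 68 over all genes. Between the replicate sets it left 4 and 1, beside 81 and 84 over all genes. Without single arrays the counts ran from 3 to 6 higher and 3 to 8 lower, beside 178 to 230 and 127 to 226 over all genes. The Gapdh ratio without single arrays differed by 0.10 to 0.14. There 3 arrays against 4 gave an exact permutation p of 0.057 without CD44lo replicate 1, 2 or 4.

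Differences that turned sign belonged to carriers that were not called, and to Smarcb1. With arrays numbered 1 and 3 alone, Slc29a1 was at 0.084, Slc29a2 at 0.22, Slc1a5 at 0.089, Slc7a11 at 0.11, Slc16a1 at 0.0071, Slc11a2 at 0.057 and Smarcb1 at 0.13. With numbers 2 and 4 alone, Slc34a1 was at -0.077, Slc15a3 at -0.071, Slc7a5 at -0.15, Slc38a2 at 0.077 and Slc20a1 at -0.19. Array weights gave 0.11 for Slc29a2, 0.068 for Slc16a1 and 0.11 for Slc11a2, and the probe set with the largest SD 0.0062 for Slc2a4. Without single arrays, Slc38a2 ran from -0.12 to 0.071, Slc29a2 from -0.13 to 0.033, Slc11a2 from -0.34 to 0.059, Slc20a1 from -0.044 to 0.077, Slc3a2 from -0.0092 to 0.18, Slc16a1 from -0.13 to 0.20, Slc12a2 from -0.45 to 0.11 and Smarcb1 from -0.15 to 0.021. The causes were not tested. The number of arrays limits the precision, and 89 carriers were dim.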
